A study of Mus musculus with 12 samples.

Results

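5-hydroxymethylcytosine (5hmC) that remained in mouse embryonic stem cells after knockdown of Tet2 was measured at 394 CpG cytosines. Every CpG cytosine whose read-outs numbered 10 or more throughout the 6 Tet2kd samples was taken, out of 427 CpG cytosines covered in any of the 12 samples of the series. Of these, 393 lay in 15 short amplified loci with at least 3 CpG cytosines each, and 1 lay in an intron of Itpkc and enters only the counts over all cytosines. The loci spanned 294 to 492 bp, held 9 to 64 CpG cytosines each, and contributed 195 cytosines of the plus strand and 199 of the minus strand. No level measured in these samples set the choice of a cytosine. The study had picked its loci from earlier antibody-based maps of 5mC and 5hmC. Most were picked as differing between parental and Tet2 knockdown cells, and some as not differing.

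The study compared parental v6.5 mouse embryonic stem cells with v6.5 cells carrying a short hairpin RNA against Tet2, by targeted sequencing after bisulfite treatment (BS-seq) and after oxidation followed by bisulfite treatment (oxBS-seq), with 3 replicates for each combination of cells and assay. The hairpin plasmid was electroporated, and puromycin-resistant clones were picked. Both kinds of cells were grown with serum and leukaemia inhibitory factor. Whether the 3 Tet2kd replicates come from 1 clone is not given in the sources used here, and the extent of the knockdown was not checked, because the analysed values are DNA read-outs only.

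TET proteins are dioxygenases that oxidise 5-methylcytosine (5mC) to 5hmC and further to 5-formylcytosine and 5-carboxylcytosine, on the path by which methyl groups are actively removed from DNA. Tet1 and Tet2 are the main family members of mouse embryonic stem cells. In BS-seq both 5mC and 5hmC are read as C, whereas in oxBS-seq 5hmC is first oxidised and is then read as T. The share of C read-outs (the C share) therefore exceeds its oxBS-seq value in BS-seq where 5hmC is present.

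The sequences that the results turn on are given first. They are 25 bases each, 5′ to 3′ on the strand of the measured cytosine, with the CpG in capitals and the measured cytosine as its first base. Coordinates are of mm9. The first 5 are the cytosines past the threshold of the test described below.
Timm17b, minus strand, chrX:7476545-7476569: ggcgccagagtcCGgcctggcgcag
Timm17b, minus strand, chrX:7476576-7476600: cgtaccaaggttCGcgagcgtactc
Timm17b, minus strand, chrX:7476591-7476615: gcctgtgcccatCGccgtaccaagg
Plcg2, plus strand, chr8:120115667-120115691: atcacggcagtaCGtagtactcacg
Letmd1, minus strand, chr15:100300296-100300320: gactgtgactaaCGcagaagagcag
The next 3 surround cytosines that the study names by position.
Letmd1, plus strand, chr15:100300096-100300120: ctctttggtcttCGttgtaggtctt
Zbtb40, minus strand, chr4:136547555-136547579: agggaaaatgtaCGcgtgccagtac
Igsf21, minus strand, chr4:139783845-139783869: cttctccgtgaaCGgccgggctgac
The last 3 hold, in the Hsp90ab1 and Stag1 loci and the intergenic locus on chromosome 5, the cytosine with the highest mean among those above 10% in each replicate, and were chosen after their values were seen.
Hsp90ab1, plus strand, chr17:45706588-45706612: tcaaccacaccgCGgataaagttga
Stag1, minus strand, chr9:100498479-100498503: gggacagcaagaCGtaccctccaag
Intergenic, plus strand, chr5:64987453-64987477: acgaacaaatgcCGgccgaaaacaa

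Spiked-in lambda phage DNA with hydroxymethylated, methylated and unmodified stretches showed how far each library was oxidised and converted. Over 27 cytosines of the 5hmC control, the C share in BS-seq was 82.0%, 82.0% and 82.9% in Tet2kd replicates 1, 2 and 3, and in oxBS-seq it was 33.0%, 40.0% and 46.6%. Oxidation was thus incomplete and differed between replicates, with an oxidation efficiency (1 minus the ratio of the oxBS-seq to the BS-seq share) of 0.598, 0.512 and 0.438. The difference in C share between BS-seq and oxBS-seq was divided by the efficiency of its replicate, and the quotient is called scaled 5hmC below, in percent of read-outs. At the 5mC control the same quotient was 0.515%, 0.792% and 1.13%, and at the unmodified control it was -0.0599%, -0.120% and 0.158%. The first is the background of cytosines read almost wholly as C, and the second that of unmethylated ones.

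**Figure D1:**
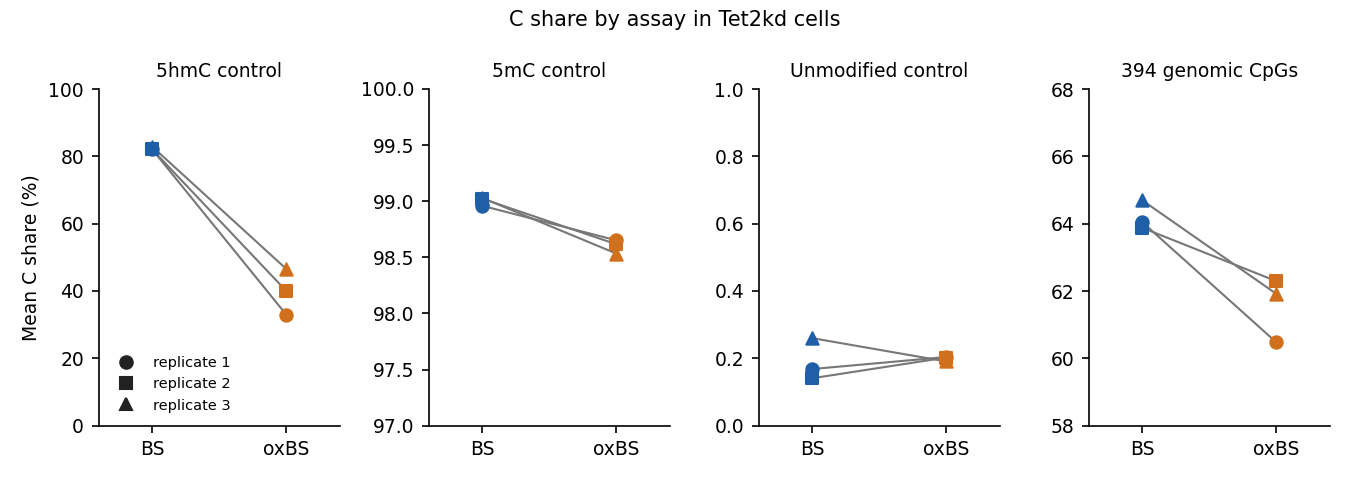
Mean C share (%, vertical axes of different range) by assay in the 3 Tet2kd replicates, for 27 cytosines of the 5hmC control, 35 of the 5mC control, 26 of the unmodified control and the 394 genomic CpG cytosines, with a grey line joining the assays of 1 replicate. The C share of the 5hmC control fell to between 33.0% and 46.6% in oxBS-seq, and that of the genomic CpG cytosines was lower in oxBS-seq than in BS-seq in each replicate.

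A small excess of C in BS-seq remained in the Tet2kd cells. Over the 394 CpG cytosines the mean C share in BS-seq was 64.0%, 63.9% and 64.7%, and in oxBS-seq it was 60.5%, 62.3% and 61.9%. The 3 BS-seq samples all lay above the 3 oxBS-seq samples (exact permutation test of 3 against 3, two-sided p = 0.1, the smallest this design allows). Mean scaled 5hmC was 5.97%, 3.09% and 6.34%, or 5.13% ± 1.78 (SD, n = 3), and was above 0 in each replicate (exact sign-flip permutation test, two-sided p = 0.25, the smallest that 3 pairs allow). Without the locus at Timm17b and Pqbp1, which was almost free of methylation, it was 6.06% ± 2.13 (SD, n = 3).

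Non-CpG cytosines, which hold little methylation in these amplicons, served as background. Their mean C share lay between 0.632% and 0.665% in the Tet2kd samples, so they give no background for CpG cytosines of intermediate C share. Over 2161 non-CpG cytosines of the same libraries the scaled difference was -0.0321%, 0.0317% and 0.0490% in the 3 replicates, a mean of 0.0162% ± 0.0427 (SD, n = 3). Averaged within the loci it ranged from -1.20% to 0.930% over loci and replicates.

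The single cytosines varied far more between replicates than their mean. The lowest mean scaled 5hmC of a cytosine was -23.6% and the highest 55.4%, the median was 3.53% and the quartiles were 0.217% and 10.2%, and 304 of the 394 means were above 0. At 117 cytosines (29.7%) all 3 replicates were above 0 and at 21 (5.33%) all 3 were below 0, against 17% and 4.77% of the non-CpG cytosines. Between pairs of replicates, Pearson's r of scaled 5hmC across the 394 cytosines was only 0.0941, 0.0535 and 0.0778. These are descriptions across cytosines that share libraries and amplicons, and are not independent replicates.

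The spread between replicates was smaller at deeper cytosines. The read-outs in the shallowest of the 6 samples ran from 13 to 5182 per cytosine, with a median of 672.5. Outside the almost unmethylated locus, the median SD between replicates was 15.4 percentage points at 55 cytosines with under 100 read-outs, 9.74 at 136 cytosines from 100 up to under 1000, and 7.12 at 139 cytosines with 1000 or more. The SD that counting error alone would give had medians of 8.49, 3.55 and 1.78 percentage points in the same classes. The observed spread thus exceeded counting error at each depth, and the excess was proportionally greatest at the deepest cytosines. All 3 replicates were above 0 at 14.5% of the shallowest cytosines, 27.9% of the middle class and 43.2% of the deepest.

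**Figure D2:**
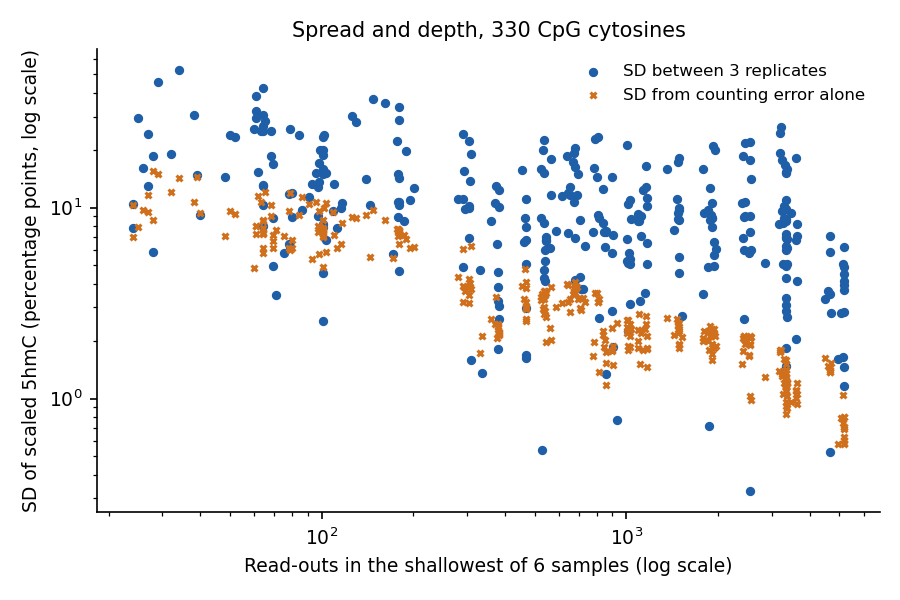
SD of scaled 5hmC between the 3 Tet2kd replicates (circles) and the SD expected from counting error alone (crosses), in percentage points on a log scale, against the read-outs of the shallowest sample on a log scale, for 330 CpG cytosines outside the almost unmethylated locus. Most circles lie above the crosses, with medians of 8.93 and 2.55 percentage points.

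Among the 15 loci, scaled 5hmC averaged over the CpG cytosines of a locus was above 0 in all 3 replicates at 11 (73.3%) and below 0 in all 3 at none. In the limma test of the paired differences with Benjamini-Hochberg adjustment over the 15 loci, 1 locus (6.67%) was past the threshold of 0.05, and 4 (26.7%) had an unadjusted p under it. Between pairs of replicates, Pearson's r across the 15 locus means was 0.328, 0.396 and 0.234, above the values across single cytosines. With only cytosines of at least 1000 read-outs, 5 loci were past the threshold (limma), namely Hsp90ab1, Letmd1 at 14.5%, Stag1 at 10.4%, Gata1 at 7.16% and the Plcg2 intron at 4.79%.

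The locus past the threshold lay in Hsp90ab1 on chromosome 17 (chr17:45706386-45706820), where 26 of 27 CpG cytosines were in coding sequence. Hsp90ab1 encodes the constitutive cytosolic chaperone HSP90 beta. The mean C share was 72.8%, 73.7% and 73.8% in BS-seq and 66.2%, 68.4% and 69.1% in oxBS-seq, with no overlap between the assays. Scaled 5hmC was 11.2%, 10.3% and 10.8%, or 10.7% ± 0.446 (SD, n = 3; limma SE 0.854, adjusted p = 0.0109), the smallest SD between replicates among the loci with a mean above 5%. It made up 14.6% of the C share in BS-seq. At 15 of the 27 cytosines all 3 replicates were above 0 and at none were all 3 below 0. The call rested on having 3 replicates, since leaving out any of them kept the level between 10.5% and 10.96% but raised the adjusted p to between 0.0513 and 0.101.

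The highest locus mean was that of Letmd1 on chromosome 15 (chr15:100299982-100300461), which encodes a mitochondrial LETM1-domain protein, with 13 CpG cytosines in coding sequence and 23 in introns. The C share was 59.3%, 58.1% and 59.7% in BS-seq and 42.9%, 56.1% and 51.7% in oxBS-seq. Scaled 5hmC was 27.4%, 3.83% and 18.4%, or 16.5% ± 11.9 (SD, n = 3; adjusted p = 0.127, limma). Replicate 2 lay far below the others here, and without it the mean was 22.9% with an adjusted p of 0.0225. Without replicate 1 it was 11.1% (adjusted p = 0.210), and without replicate 3 it was 15.6% (adjusted p = 0.344). At 17 of 36 cytosines all 3 replicates were above 0.

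Other loci in coding sequence held less. In Runx1, a transcription factor of blood formation, scaled 5hmC was 1.62%, 1.68% and 10.7% (adjusted p = 0.245, limma), with the mean set by replicate 3. In Gata1, the erythroid transcription factor on the X chromosome, it was 8.77%, -0.327% and 3.55% (adjusted p = 0.245). In Zbtb40, which encodes a zinc finger protein, it was 1.09%, -0.653% and 3.36% (adjusted p = 0.432) at a C share in BS-seq of 93.8%, 93.1% and 94.2%. The replicates of the last 2 genes fell on both sides of 0.

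In the mostly intronic loci of Plcg2, N4bp1 and Igsf21 each replicate was above 0. In the Plcg2 intron on chromosome 8 (chr8:120115553-120115846), in a gene for a phospholipase C of immune receptor signalling, scaled 5hmC was 3.06%, 5.56% and 6.84% (mean 5.15%, adjusted p = 0.0988, limma), and 12 of 22 cytosines were above 0 in all 3 replicates. In N4bp1, whose product binds the ubiquitin ligase Nedd4, 14 of 15 CpG cytosines were intronic, and scaled 5hmC was 3.36%, 6.22% and 4.32% (mean 4.63%, adjusted p = 0.0988). These replicates differed by less than those of most loci. In the Igsf21 intron, in a gene for an immunoglobulin superfamily protein, it was 1.02%, 1.17% and 8.77% (adjusted p = 0.251). At the pseudogene Gm11949 it was 1.76%, -0.954% and 8.74% (adjusted p = 0.340).

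Near the start of Stag1, which encodes a cohesin subunit, 11 CpG cytosines lay in untranslated and 6 in intronic sequence (chr9:100498295-100498720). Scaled 5hmC was 3.72%, 15.5% and 12.2%, or 10.5% ± 6.07 (SD, n = 3; adjusted p = 0.116, limma), and 9 of 17 cytosines were above 0 in all 3 replicates. At the intergenic loci it was 15.8%, 13.4% and 1.68% upstream of Twist2 (9 cytosines of the plus strand, adjusted p = 0.127), 4.18%, 2.87% and 10.7% just upstream of Pvt1 in the Myc region (adjusted p = 0.127), and 9.88%, 3.75% and 0.799% at the locus on chromosome 5 distal to Klf3 (adjusted p = 0.217). Each of these replicate values was above 0, and none of the 4 loci passed the threshold.

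The locus shared by the divergent genes Timm17b, for a subunit of the mitochondrial import machinery, and Pqbp1, for a polyglutamine-binding splicing protein, was almost unmethylated (chrX:7476281-7476698). The C share was 0.766%, 0.573% and 0.842% in BS-seq and 0.471%, 0.364% and 0.758% in oxBS-seq over 64 CpG cytosines. Scaled 5hmC was 0.493%, 0.408% and 0.190% (adjusted p = 0.739, limma), against -0.0599%, -0.120% and 0.158% at the unmodified control in the same replicates.

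**Figure D3:**
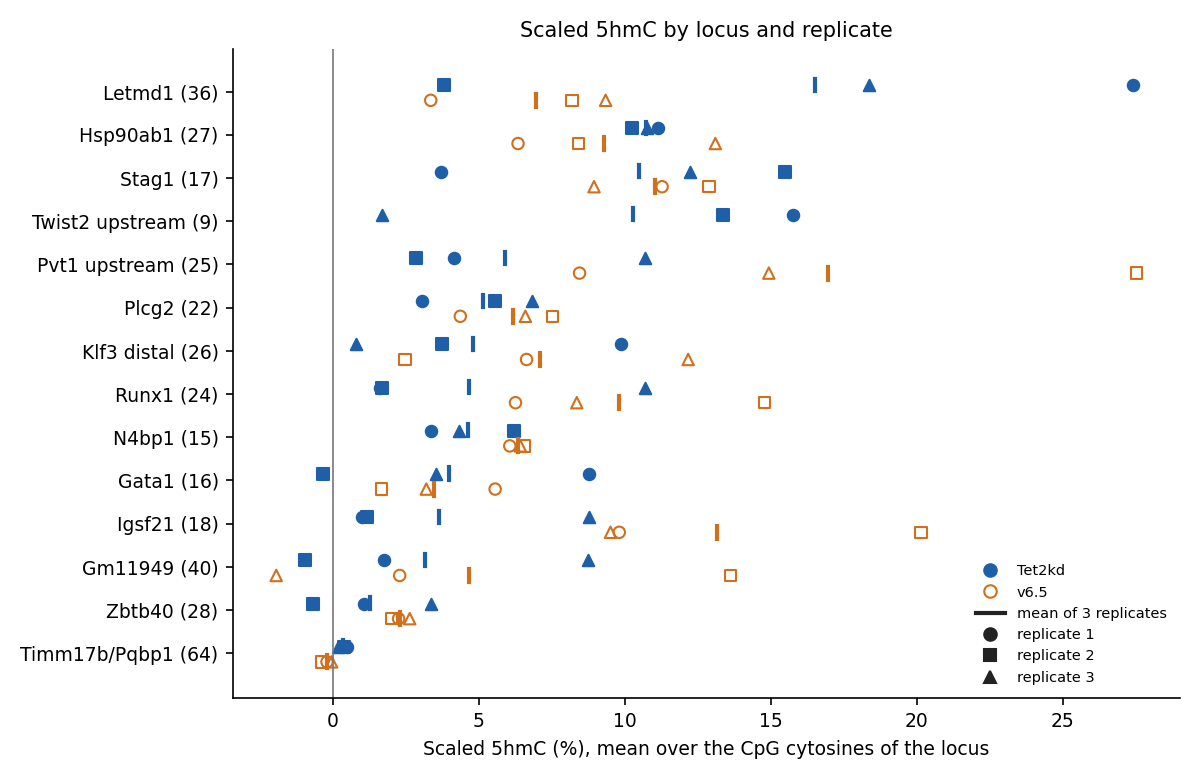
Scaled 5hmC (%, horizontal axis) of 14 loci, averaged over the number of Tet2kd CpG cytosines given in parentheses, in the 3 Tet2kd replicates (filled) and the 3 v6.5 replicates (open), with short vertical lines at the means. The Tet2kd replicates of Hsp90ab1 lie between 10.3% and 11.2%, while those of Letmd1 range from 3.83% to 27.4%.

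In the edgeR quasi-likelihood test of the C and T read-outs, with the replicate as a block and Benjamini-Hochberg adjustment over the 394 cytosines, 5 cytosines (1.27%) had more C in BS-seq at an adjusted p under 0.05 and 0 had more C in oxBS-seq. At an unadjusted p under 0.05, 38 (9.64%) had more C in BS-seq and 8 (2.03%) had more in oxBS-seq. The 2161 non-CpG cytosines, in a separate fit over every context, gave 106 (4.91%) and 17 (0.787%). More C in BS-seq was thus the commoner direction at non-CpG cytosines too. That fit called 0 CpG cytosines, so its counts are not on the same footing as those of the CpG fit. Without the replicate block, 0 CpG cytosines were called, with 39 and 3 at an unadjusted p under 0.05, and the calls numbered 7, 0 and 3 on leaving out replicates 1, 2 and 3.

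The called cytosine with the highest level lay on the minus strand of a Letmd1 intron at position 100300308 of chromosome 15. Its C share was 87.9%, 92.6% and 93.0% in BS-seq and 77.5%, 83.5% and 77.3% in oxBS-seq, so the assays did not overlap. Scaled 5hmC was 17.4%, 17.6% and 35.8%, or 23.6% ± 10.6 (SD, n = 3; log2 fold change of the odds 1.45, adjusted p = 0.0395, edgeR), from at least 2393 read-outs per sample. The adjusted p was 0.108 without the block. In v6.5 cells scaled 5hmC at this cytosine was 9.92%, 27.8% and 22.5%.

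The second lay on the plus strand of the Plcg2 intron at position 120115679 of chromosome 8. Its C share was 97.4%, 98.0% and 97.2% in BS-seq and 85.7%, 93.7% and 88.2% in oxBS-seq, again without overlap. Scaled 5hmC was 19.6%, 8.43% and 20.7%, or 16.2% ± 6.79 (SD, n = 3, adjusted p = 0.0395, edgeR), and the adjusted p was 0.0826 without the block. In v6.5 cells it was 5.84%, 5.01% and 1.28%, below each Tet2kd replicate.

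The other 3 calls lay close together on the minus strand of the almost unmethylated Timm17b locus, and were small. At position 7476557 of the X chromosome the C share was 1.61%, 0.173% and 1.04% in BS-seq and 0.130%, 0% and 0.154% in oxBS-seq. Scaled 5hmC there was 2.48%, 0.337% and 2.02% (adjusted p = 0.0262, edgeR). At positions 7476588 and 7476603 the mean was 1.21% and 0.960% (adjusted p = 0.0270 at both), and in replicate 2 it was 0.214% at each. In the 151 non-CpG cytosines of the locus the scaled difference was -0.0527%, 0.142% and -0.0262%, and the 3 calls of this locus had an adjusted p of 0.298 without the block. The v6.5 means at positions 7476557, 7476588 and 7476603 were -0.0789%, -0.795% and -0.292%. The genotypes were not tested against each other at the called cytosines. The part of conversion errors in these calls was not tested.

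Of the cytosines that the study names, the one on the plus strand of Letmd1 at position 100300108 had the highest mean scaled 5hmC of the 394. Its C share was 53.8%, 55.3% and 55.6% in BS-seq and 28.1%, 19.9% and 31.9% in oxBS-seq. Scaled 5hmC was 43.0%, 69.1% and 54.0%, or 55.4% ± 13.1 (SD, n = 3; adjusted p = 0.0659, edgeR), from as few as 64 read-outs in 1 sample. The 69.1% of replicate 2 exceeded its C share in BS-seq of 55.3%, the ceiling for 5mC and 5hmC together, so it is too high. The study's own model put the hydroxymethylation level of this cytosine in Tet2kd cells below the mean found here. It put that level above the one in parental cells, a rise on knockdown that the study calls unexpected. The cytosine in coding sequence of Zbtb40 at position 136547567 held 3.01%, 4.71% and 5.23% (adjusted p = 0.328). The Igsf21 cytosine at position 139783857 gave -3.20%, -4.51% and 29.6% (adjusted p = 0.788), so that its mean of 7.31% came from replicate 3, and without that replicate it was -3.85%.

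At 21 of the 394 cytosines, chosen after their values were seen, scaled 5hmC was above 10% in each replicate, while 1 cytosine was below -10% in each. They numbered 7 of 36 in Letmd1, 5 of 17 near the start of Stag1, 3 of 27 in Hsp90ab1 and 3 of 25 upstream of Pvt1. The others were 2 of 26 at the chromosome 5 locus and 1 of 24 in Runx1. The loci differ in depth, and no test was made between these counts. In Hsp90ab1, the cytosine at position 45706600 had a C share of 63.7%, 61.2% and 67.6% in BS-seq and 50.9%, 39.5% and 56.4% in oxBS-seq, a scaled 5hmC of 29.8% ± 11.1 (SD, n = 3). In Stag1, the cytosine at position 100498491 had 79.3%, 83.2% and 81.9% in BS-seq and 68.8%, 69.3% and 76.1% in oxBS-seq, a scaled 5hmC of 19.3% ± 7.12 (SD, n = 3). At the chromosome 5 locus, the cytosine at position 64987465 had 83.2%, 87.3% and 87.5% in BS-seq and 68.3%, 76.0% and 81.1% in oxBS-seq, a scaled 5hmC of 20.6% ± 5.23 (SD, n = 3). The assays did not overlap at any of the 3, which the way they were chosen made likely. The adjusted p was 0.148 or more for each (edgeR).

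The v6.5 samples, which played no part in that choice, gave a second reading of the same positions. Over the 21 cytosines the median of the v6.5 means was 11.95%, and all 3 v6.5 replicates were above 0 at 13 (61.9%). Outside the almost unmethylated locus the median over 320 cytosines was 7.02%, with 183 (57.2%) above 0 in all 3. The 5 Stag1 cytosines were above 0 in each v6.5 replicate. The cytosine with the highest level in Tet2kd cells, in Letmd1, was not: in v6.5 cells it gave -14.6%, 6.31% and -2.08%.

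**Figure D4:**
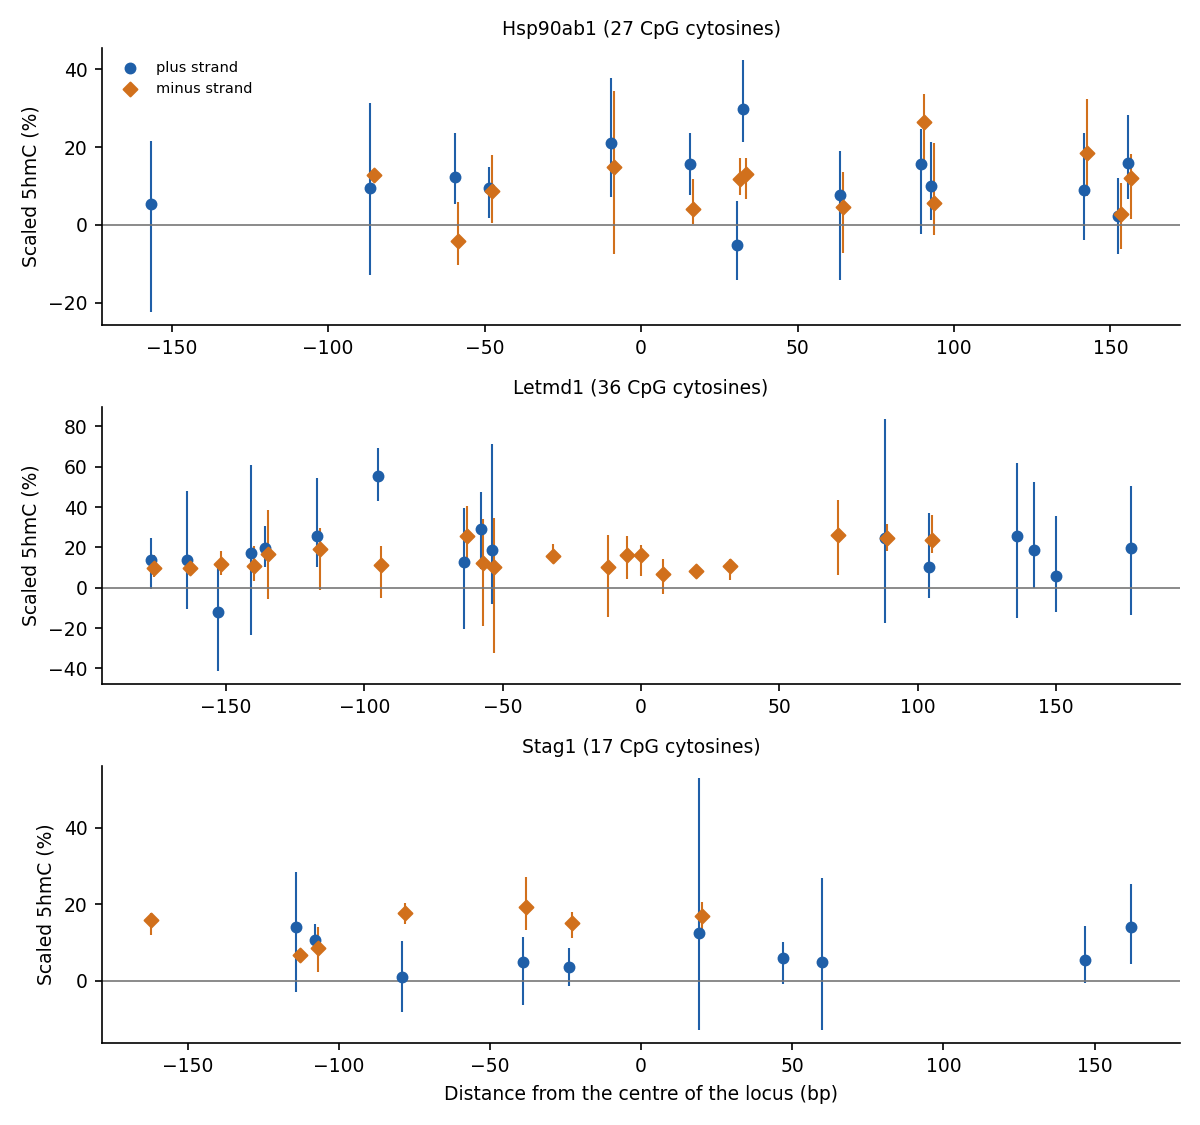
Mean scaled 5hmC (%, vertical axes of different range) of each CpG cytosine in the Hsp90ab1, Letmd1 and Stag1 loci against its distance from the centre of the locus in bp, by strand, with bars from the lowest to the highest of the 3 Tet2kd replicates. The 7 minus-strand cytosines of Stag1 are above 0 in each replicate, and the plus-strand bars of Letmd1 are the longest of the 3 loci.

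Both strands of a CpG were measured at 170 sites, 143 of them outside the almost unmethylated locus. Mean scaled 5hmC over single cytosines of the plus strand was 6.87% ± 0.359 (SD, n = 3) and over those of the minus strand 5.22% ± 4.00, with replicate 2 at 0.611% on the minus strand. Across the 143 sites Pearson's r between the means of both strands was 0.167. At 43 sites the plus strand was above 0 in all 3 replicates, and the minus strand was too at 11 of these (25.6%), against 35.7% over all 143 sites. A positive plus strand thus went with no higher share of positive minus strands.

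All 6 values of a site were above 0 at 12 of the 170 sites and below 0 at 1. Outside the almost unmethylated locus this was 11 and 1 of the 143 sites. A positive plus strand went with no higher share of positive minus strands (25.6% against 35.7%), so these sites are listed as a description only. Of the 12, 4 were in Hsp90ab1, 3 in the Plcg2 intron, 2 upstream of Pvt1, and 1 each in Stag1, N4bp1 and the almost unmethylated locus. The site with the highest mean was in Hsp90ab1, where position 45706600 of the plus strand had a mean of 29.8% and position 45706601 of the minus strand 13.1%.

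Within loci the strands differed in depth and in spread. On the minus strand of Stag1, with a median of 4643 read-outs in the shallowest sample, the 7 cytosines averaged 13.2%, 15.4% and 14.3% and all were above 0 in all 3 replicates. On its plus strand, with a median of 1856, the 10 cytosines averaged -2.94%, 15.5% and 10.8%. In Letmd1, 20 minus-strand cytosines with a median of 2440.5 read-outs averaged 18.3%, 4.02% and 22.1%, and 16 plus-strand cytosines with a median of 61 averaged 38.8%, 3.59% and 13.6%. At the chromosome 5 locus the plus strand averaged 14.1%, 14.2% and 10.1%, and the minus strand, with a median of 103 read-outs, 5.70%, -6.68% and -8.50%. Among the 29 combinations of locus and strand, 14 were above 0 in all 3 replicates and 0 below 0 in all 3.

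Scaled 5hmC in Tet2kd cells was highest at cytosines of intermediate C share in v6.5 BS-seq, a measure made from other samples. It was 0.351% ± 0.474 (SD, n = 3) at 66 cytosines with a C share under 10% in v6.5 cells, 9.64% ± 5.49 at 77 cytosines with 10 to 50%, 6.62% ± 0.718 at 139 cytosines with 50 to 80%, and 3.01% ± 1.37 at 112 cytosines with 80% or more. In each replicate the class of 80% or more lay below the class of 50 to 80%, while the class of 10 to 50% was the lower of the middle classes in replicate 2 only. These classes share loci, and no test was made across them.

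By the base before the CpG, outside the almost unmethylated locus, mean scaled 5hmC was 6.76% ± 2.96 (SD, n = 3) after A, 7.08% ± 2.42 after C, 5.89% ± 2.56 after G and 3.92% ± 2.40 after T. It was lowest after T in replicates 1 and 2 but after C in replicate 3, so the order of the bases did not hold across replicates. By annotation it was 6.65% ± 3.30 at 97 coding cytosines, 6.09% ± 1.56 at 122 intronic and 5.57% ± 1.65 at 76 intergenic ones. The extremes were classes of 1 locus each, with 10.7% ± 3.83 at the 11 untranslated cytosines of Stag1 and 2.89% ± 5.01 at the 24 exonic ones of Gm11949, and no test was made between classes.

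Parental v6.5 cells were measured in the same way. The titles of these 6 samples also carry the word knock-down, but their source and genotype labels give parental and wild-type cells, and they were taken as such. Over 384 CpG cytosines with at least 10 read-outs in all 12 samples, mean scaled 5hmC was 5.77%, 2.86% and 6.52% in Tet2kd cells and 4.60%, 8.36% and 5.95% in v6.5 cells. The means were 5.05% ± 1.93 and 6.30% ± 1.90 (SD, n = 3 each), a difference of -1.25 percentage points that was smaller than the spread between replicates (exact permutation test over 20 assignments, two-sided p = 0.5). Without scaling by the efficiency the difference was -1.22 percentage points (exact permutation p = 0.1, the smallest possible). The v6.5 oxidation efficiencies were 0.756, 0.443 and 0.717, against 0.598, 0.512 and 0.438 in Tet2kd cells. The study's own model gave higher efficiency in Tet2kd cells, whereas here 0.756 and 0.717 lay above every Tet2kd value. All scaled levels depend on these efficiencies. In both genotypes the replicate with the highest level also had the lowest efficiency, Tet2kd replicate 3 at 0.438 and v6.5 replicate 2 at 0.443. The part of the efficiency in these levels was not tested.

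By locus, Tet2kd cells had the lower mean at 10 of 14 loci and the higher at 4. All Tet2kd replicates lay below all v6.5 replicates at 2 loci (14.3%) and above at 1 (7.14%). In the Igsf21 intron v6.5 cells had 9.82%, 20.1% and 9.51% against the 1.02%, 1.17% and 8.77% of Tet2kd cells, a difference of -9.51 percentage points. At the almost unmethylated Timm17b locus v6.5 cells had -0.188%, -0.366% and -0.0300%, all below the Tet2kd replicates. The exact permutation p was 0.1 at both of these loci, the smallest possible, and 0.467 after Benjamini-Hochberg adjustment over the 14 loci.

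At the loci with the highest means in Tet2kd cells the genotypes overlapped, the locus upstream of Twist2 aside, which was not covered deeply enough in v6.5 cells to compare. Hsp90ab1 had 6.35%, 8.42% and 13.1% in v6.5 cells, a difference of 1.43 percentage points (exact permutation p = 0.6). Stag1 had 11.3%, 12.9% and 8.95% in v6.5 cells (difference -0.558 percentage points, exact permutation p = 0.9), and Letmd1 had 3.36%, 8.20% and 9.35% (difference 9.56 percentage points, exact permutation p = 0.3). Upstream of Pvt1, v6.5 cells had 8.46%, 27.5% and 14.9%, against 4.18%, 2.87% and 10.7% in Tet2kd cells (difference -11.1 percentage points, exact permutation p = 0.2). Unscaled, the difference there was -6.88 percentage points (exact permutation p = 0.1), while the unscaled p was 0.9 at Hsp90ab1 and 0.5 at Letmd1. A p above the threshold does not show that the genotypes were alike, since 3 against 3 replicates cannot reach 0.05. Across the 14 loci Pearson's r between the means of both genotypes was 0.394 and Spearman's rho 0.626. Across the 13 loci without the almost unmethylated one they were 0.291 and 0.555. Across the 384 cytosines, those of the almost unmethylated locus included, r was 0.260.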

How the data were processed

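Targeted BS-seq and oxBS-seq of 6 Tet2kd samples, 3 replicates by each assay, were analysed, with 6 v6.5 samples as comparison. According to the study's methods and the submitters' processing notes, the authors aligned reads with Bismark 0.7.12 and Bowtie2 to mm9 and the lambda genome. Each deposited file gives, for the cytosines of 1 sample, the counts of reads showing C and of those showing T, not normalized and with 10 or more in all, and the deposited percent column is the C share of the same counts and served only to check them. DNA of each replicate was split for both assays.

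Deposited positions were raised by 1, and strand, context and annotation were read from the mm9 sequence and gene models, with loci separated by gaps over 5000 bp. Genomic read-outs per Tet2kd sample lay between 7493524 and 18096597. At 10 read-outs a C share of 50% has a Wilson 95% interval from 23.7% to 76.3% and a smallest detectable share of 30.0% (3 read-outs); at 672 read-outs these are 46.2% to 53.8% and 0.446%. Reads carried no molecular identifiers, so these cover counting error only. The p-values rest on the spread over 3 cultures, which also holds that of oxidation and library preparation. In the fits with the replicate block this is the spread of the difference between assays. Oxidation efficiency came from the Watson-strand cytosines of the hydroxymethylated lambda stretch.

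Counts were tested with edgeR 4.0.16 (replicate, assay and sample effects, no dispersion trend) and paired locus differences with limma 3.58.1, both in R 4.3.3 and tested on simulated data. Single values were tested by exact permutation. The replicate block follows the split DNA; same-numbered samples did not deviate together (correlations -0.0854, -0.140 and -0.0562 over 394 cytosines). Named were all loci with at least 3 CpG cytosines, the called cytosines, of which up to 12 were allowed, and those the study names by position. One locus entered the fits and counts but is not reported here by itself. The members and lists were chosen with earlier results of these data known. Alternatives covered coverage, scaling, block, test, weighting and each left-out replicate.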

Additional observations from a re-analysis of the deposited data

Results flagged for a closer look

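At the almost unmethylated Timm17b and Pqbp1 locus, every Tet2kd replicate had scaled 5hmC above 0 and every v6.5 replicate below 0, a difference of 0.558 percentage points. The Tet2kd values were 0.493%, 0.408% and 0.190%, and the v6.5 values were -0.188%, -0.366% and -0.0300%. Summing the counts over the locus gave a Tet2kd value of -0.694% instead. The strands differed in the Tet2kd replicates. The 27 plus-strand cytosines averaged -0.503%, 1.01% and -1.39%, and the 37 minus-strand ones 1.22%, -0.0325% and 1.34%. Of the cytosines of the locus, 11 were above 0 in all 3 Tet2kd replicates and 7 below 0 in all 3. At position 7476603 of the X chromosome in the same locus, the Tet2kd values of 1.03%, 0.214% and 1.63% were all above 0 and the v6.5 values of -0.0105%, -0.704% and -0.162% all below 0, a difference of 1.25 percentage points that was not tested at this cytosine. The unmodified control gave -0.0599%, -0.120% and 0.158% in the same Tet2kd replicates.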

How the results depend on the processing

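The 5 CpG cytosine calls were 0 without the replicate block, in the fit over every context, by limma, by quasi-binomial regression with the block and at a threshold of 0.01. The Cochran-Mantel-Haenszel test, which ignores the spread between replicates, called 220 with more C in BS-seq and 53 with more in oxBS-seq. Leaving out a replicate gave 0 to 7 calls (0 without replicate 2, 3 without replicate 3) and 0 to 2 in the opposite direction, which was also 1 in quasi-binomial regression. Minimums of 100 and 1000 read-outs gave 4 and 5 calls. Mean scaled 5hmC was 2.64% unscaled and 14.6% with the efficiency taken from control positions of both strands, of which 41 opposite the 5hmC stretch read over 99% C in both assays; its other values lay between 4.53% and 6.23%. Loci past the threshold numbered 1, but 2 and 5 at minimums of 100 and 1000 read-outs, 8 with counts summed over the locus, 3 without the replicate block and 0 to 1 without a replicate. With summed counts the Timm17b mean turned to -0.694%. The difference between genotypes stayed below 0 in all alternatives (-0.158 to -2.10 percentage points), also with the replicate block (-1.25, exact sign-flip permutation p = 1). Its exact permutation p was 0.5 in the main setting and 0.1 unscaled, the smallest possible. Per locus it changed sign, in percentage points, unscaled at Hsp90ab1 (-0.430) and Gata1 (-0.207), and on leaving out 1 replicate at Gm11949 (-4.78 to 3.00), Hsp90ab1 (-0.0373 to 3.34), the chromosome 5 locus (-4.83 to 0.243), Plcg2 (-1.92 to 0.0241), Stag1 (-3.06 to 2.82) and Gata1 (-1.87 to 2.68). The causes were not tested. Depth was lowest on the minus strand of Gata1 and the plus strands of Timm17b and Letmd1, with medians of 27, 46 and 61 read-outs in the shallowest sample.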
